A study of Homo sapiens with 3 samples.

Results

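The genes described here encode the proteins of the mitochondrial ribosome. They were chosen by name alone: each RefSeq transcript in the deposited tables was given its current gene symbol, FPKM (fragments per kilobase of transcript, scaled to the mapped fragments of the library) was summed per symbol, and symbols made of MRPL or MRPS, a number and at most one of the letters A, B or C were kept. This gave 77 genes of 26543 in all, with 147 transcript entries on 21 chromosomes. By position in the ribosome 51 belong to the large subunit (every MRPL gene, with MRPS18A and MRPS30) and 26 to the small subunit. KGD4, once named MRPS36, carries another current symbol and was not counted.

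The libraries come from MTAC-P, a human lung cancer line derived from PC9 and resistant to inhibitors of the EGFR tyrosine kinase, grown in DMEM with 10% serum. The libraries named shBCAT1 1 and shBCAT1 2 carry a short hairpin against BCAT1, the cytosolic branched-chain aminotransferase, and 1 control library carries a hairpin against luciferase. The labels do not say whether both BCAT1 libraries hold the same hairpin, come from a single clone or were grown apart, so the p-values given here measure only a spread that may be technical. The study's design text speaks of triplicates, whereas 2 libraries and 1 library are described here.

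Mitochondrial ribosomes are built in the matrix from RNAs that the mitochondrial genome encodes and from proteins that nuclear genes encode and cytosolic ribosomes make. They translate the core subunits of the respiratory chain that the mitochondrial genome encodes. About their make-up it is known that part of the proteins descend from bacterial ribosomal proteins and part have no bacterial counterpart. Promoters of nuclear genes for mitochondrial proteins often carry sites for ETS factors such as GABPA, for NRF1 and for YY1.

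In the series as a whole the BCAT1 gene itself stood at 1.05 FPKM in the library labelled shBCAT1 1 and 0.241 FPKM in the library labelled shBCAT1 2, against 0.213 FPKM in the control, so neither was lower than the control and the directions below are between libraries as labelled. FPKM summed over all genes came to 44312 and 46145 for these libraries, against 53898 for the control. The width of the confidence bounds implied about 15400000 and 16300000 mapped fragments for the libraries labelled shBCAT1, against 14900000 for the control. The epithelial markers KRT8, KRT18, KRT19 and EPCAM were present in each library, while the lung lineage markers NKX2-1 and NAPSA lay between 0 and 0.224 FPKM. PTPRC and COL1A2, markers of blood cells and fibroblasts, were listed at 0 throughout. COL1A1, also a fibroblast marker, was at 0.259 and 0.203 FPKM against 0.105 FPKM in the control. The endothelial marker PECAM1 was at 0 in both libraries labelled shBCAT1 and at 0.0271 FPKM in the control. The 5 markers of blood, endothelial and stromal cells summed to 3.77 and 3.80 FPKM, against 3.55 FPKM in the control, nearly all of it CD68. In such bulk RNA, fewer cells of a kind and less RNA per cell cannot be told apart.

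The promoters shown are 4 of genes that were either among the most abundant or among the most different between libraries and that carry matches to the motifs searched, and that of MRPL12, an abundant gene with no match. Each is the 130 bases before the RefSeq start on GRCh38.p14, read 5′ to 3′ on the gene's strand, with matches to CCGGAAG (ETS/GABPA), AANATGGC (YY1), GCGCANGCG (NRF1) or CACGTG (E-box) on either strand in capitals. MRPL51 lies at chr12:6493263-6493392 (minus strand), MRPS34 at chr16:1773135-1773264 (minus), MRPL36 at chr5:1799838-1799967 (minus), MRPL47 at chr3:179604639-179604768 (minus) and MRPL12 at chr17:81703237-81703366 (plus). In the deposited tables MRPL51 starts inside the bases shown, at 6493305, and MRPS34, MRPL36 and MRPL47 start within the last 10 of theirs.
MRPL51: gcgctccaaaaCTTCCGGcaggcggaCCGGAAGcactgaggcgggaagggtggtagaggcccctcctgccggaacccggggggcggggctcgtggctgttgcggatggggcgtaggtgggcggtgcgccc
MRPS34: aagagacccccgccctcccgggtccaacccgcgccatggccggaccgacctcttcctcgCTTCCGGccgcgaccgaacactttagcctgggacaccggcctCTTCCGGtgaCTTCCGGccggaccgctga
MRPL36: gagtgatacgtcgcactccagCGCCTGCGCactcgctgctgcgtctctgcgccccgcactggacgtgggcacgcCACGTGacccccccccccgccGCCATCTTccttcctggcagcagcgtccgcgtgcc
MRPL47: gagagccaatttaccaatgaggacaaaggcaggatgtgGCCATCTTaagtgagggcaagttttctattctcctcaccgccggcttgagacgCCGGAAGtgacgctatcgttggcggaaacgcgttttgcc
MRPL12: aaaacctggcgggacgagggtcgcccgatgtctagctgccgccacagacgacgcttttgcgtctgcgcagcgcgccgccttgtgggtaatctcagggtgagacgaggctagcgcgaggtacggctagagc

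RefSeq promoters, from 250 bases before the start to 50 after it, were at hand for 69 of the 77 genes and for 27305 genes in all. The ETS/GABPA letters were found in 29 of the 69 (42.0%), beside 10.7% of all promoters. Among genes tested between the libraries, 26 of 54 members with a promoter held them (48.1%), beside 24.1% of 3079 genes tested. The YY1 letters were in 25 of the 69 (36.2%), beside 6.82% of all promoters, and in 33.3% of members tested, beside 12.8% of genes tested. For NRF1 the count was 13 of the 69 (18.8%), beside 8.05% of all promoters, but among genes tested the share was lower in the family, at 13.0% beside 17.5%. For the E-box it was 6 of the 69 (8.70%), beside 7.43% of all promoters, and 5.56% beside 11.0% among genes tested. Of matches to different motifs, 0 pairs shared bases. Of the 39 ETS/GABPA matches 21 began within the 50 bases before the start, whereas 22 of the 28 YY1 matches began after it, with a median position of base 14. At 18 of the 69 promoters none of the motifs was matched, and 16 held more than 1 kind. These are matches of letters, and whether any factor binds there was not measured.

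All 77 genes had a value above 0 in each library. MRPL51, a large subunit protein without bacterial counterpart (chromosome 12, 6492150 to 6493305, hg38), was the most abundant on the FPKM scale, at 25.8 and 22.4 FPKM in the libraries labelled shBCAT1 1 and 2 against 32.2 FPKM in the control. MRPS17, the counterpart of bacterial S17 (chromosome 7, 55951918 to 55955340), followed at 20.4 and 16.7 FPKM against 30.6 FPKM in the control. MRPL12, which forms the flexible stalk that recruits translation factors (chromosome 17, 81703370 to 81707526), was at 20.3 and 15.5 FPKM against 28.1 FPKM in the control. In each of these genes the control was the highest library.

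MRPL36, a small counterpart of bacterial L36, had 13.8 and 15.1 FPKM against 18.3 FPKM in the control. MRPS34, found only in mitochondrial small subunits, had 10.9 and 12.1 FPKM against 15.4 FPKM, but its value is split over 2 transcripts and its bounds reached from 1.61 to 29.1 FPKM in the control. MRPS24, the counterpart of bacterial S3, which lines the path of incoming mRNA, had 9.67 and 8.92 FPKM against 16.9 FPKM in the control. MRPL41 and MRPL21 completed the 8 most abundant. MRPL41 had 10.3 and 9.57 FPKM against 14.7 FPKM in the control, and MRPL21 had 10.6 and 9.14 FPKM against 12.9 FPKM. In all 8 both libraries labelled shBCAT1 lay below the control, although the bounds of MRPL36, MRPS34, MRPL41 and MRPL21 overlapped those of the control in both.

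At the other end, 17 genes had a mean below 1 FPKM and were not tested: MRPL15, MRPL17, MRPL19, MRPL22, MRPL30, MRPL35, MRPL39, MRPL42, MRPL45, MRPL50, MRPL57, MRPS14, MRPS18C, MRPS25, MRPS27, MRPS30 and MRPS31. Their values ran from 0.110 to 0.910 FPKM and from 0.192 to 1.16 FPKM in the libraries labelled shBCAT1 1 and 2, and from 0.192 to 1.53 FPKM in the control, with MRPL19 the lowest in each. Of the 17, 8 lay below the control in both libraries and 3 above it. With no filter on mean FPKM, 35.2% of 16439 genes of any level lay below and 27.3% above. MRPL45, which sits at the exit tunnel and contacts the inner membrane, was at 0.620 and 1.15 FPKM against 0.860 FPKM in the control. MRPS18C was at 0.516 and 0.694 FPKM against 1.53 FPKM, with bounds that overlapped. Its paralog MRPS18B was at 2.23 and 2.38 FPKM against 3.50 FPKM, also with overlapping bounds, so both of these S18 paralogs of the small subunit had their highest value in the control.

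**Figure D1:**
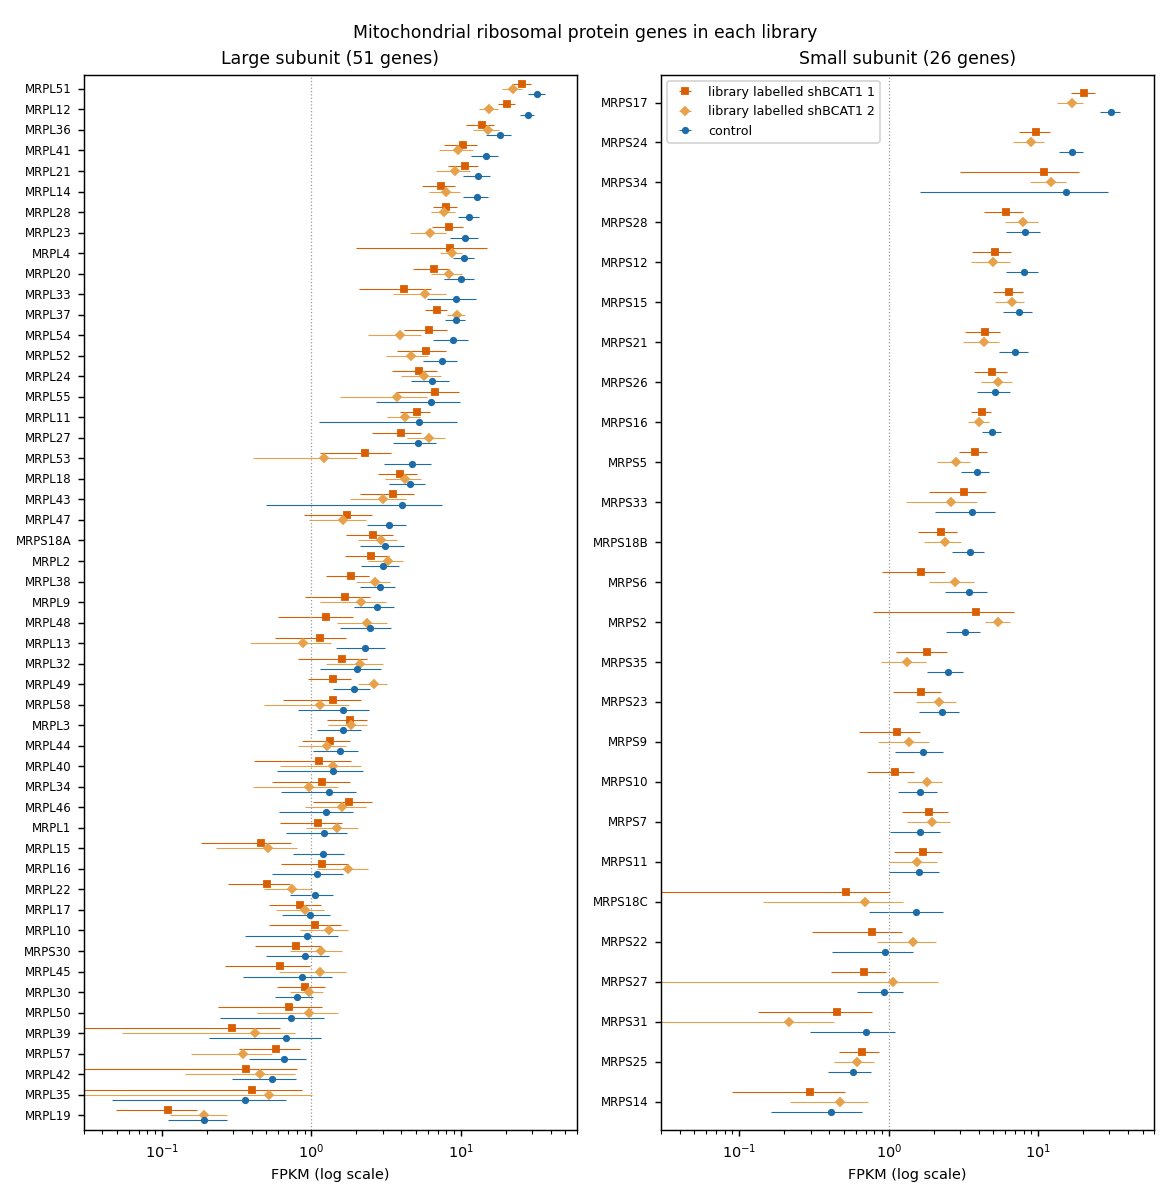
FPKM of the 77 genes in each library on a log axis, large subunit left and small subunit right, ordered by the control; squares and diamonds are the libraries labelled shBCAT1 1 and 2, circles the control, bars the confidence bounds of the deposited tables (cut at the left edge) and the dotted line 1 FPKM. The control lies to the right of both other libraries for all 8 of the most abundant genes. The same holds for 72.1% of 523 other genes with a mean of 10 FPKM or more (not drawn). Low genes have wide and mostly overlapping bars.

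Over the 77 genes FPKM summed to 307 and 306.1 for the libraries labelled shBCAT1 1 and 2, against 415 for the control, which gives ratios of 0.739 and 0.737. As a share of all FPKM this was 0.693% and 0.663% in these libraries and 0.771% in the control. For the large subunit the ratios to the control were 0.747 and 0.735 and for the small subunit 0.722 and 0.740. The sums of both subunits were thus lower than the control's, and by more than the total FPKM was.

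To ask which of these genes differ when BCAT1 is targeted, both libraries labelled shBCAT1 were compared with the control by limma on log2(FPKM + 1), on which scale the change of low genes is understated, over 3889 genes whose mean reached 1 FPKM. Of the 77 genes 60 passed this filter. None passed an adjusted p of 0.05 in either direction, with adjusted p-values by limma from 0.797 to 0.999, beside 0.36% of all genes tested that were called lower and 0% called higher. Without adjustment, at p under 0.05, limma gave 9 of the 60 with lower values (15%), beside 4.96% of all genes tested, and 0 with higher values, beside 0.643%. The 9 were MRPS17, MRPS24, MRPS12, MRPS21, MRPL13, MRPL14, MRPL33, MRPL47 and MRPL53. With 1 control library, the spread comes from the other 2 (1 residual degree of freedom) and a prior pooled over genes, and the control is assumed to vary as they do.

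As a family the 60 genes had mostly lower values. Both libraries labelled shBCAT1 lay below the control in 43 of the 60 (71.7%), beside 43.7% of all genes tested, and both lay above it in 6 (10%), beside 25.6%. With a trend on transcript length removed, as described below, both lay below in 48.3% of the 60, beside 43.1% or 43.3% of all genes tested, depending on the source of the lengths. These libraries share the single control, so a high or low control value moves both alike. The median log2(FPKM + 1) difference was -0.30 for shBCAT1 1 and -0.24 for shBCAT1 2, beside -0.12 and 0.01 for all genes tested. Over both, the median was -0.24 beside -0.06 for all genes.

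**Figure D2:**
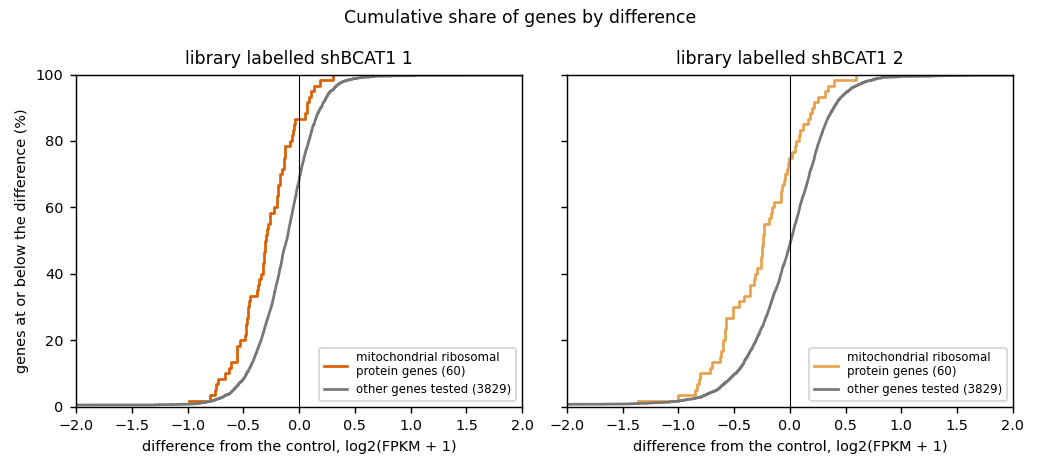
Cumulative share of genes (vertical axis, %) at or below a given log2(FPKM + 1) difference from the control, for the library labelled shBCAT1 1 (left) and shBCAT1 2 (right); coloured lines are the 60 mitochondrial ribosomal protein genes and grey lines the other genes tested. The coloured line lies left of the grey one over most of its range in both panels, with medians of -0.30 and -0.24; 25 and 34 genes, none of them of this family, fall outside the axes.

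Bounds lay below those of the control in both libraries for 5 of the 60 genes (8.33%), beside 4.17% of all genes tested. MRPL12 was seen with about 256 and 206 fragments in the libraries labelled shBCAT1 1 and 2 and 343 in the control, the best-covered value of the family. Its log2(FPKM + 1) difference was -0.63 ± 0.24 (SE), with an adjusted p by limma of 0.797. MRPS17, with 121 and 105 fragments against 176 in the control, differed by -0.70 ± 0.22. MRPS24 had bounds of 7.42 to 11.9 and 6.80 to 11.0 FPKM against 13.9 to 19.9 FPKM in the control, a difference of -0.80 ± 0.19. MRPL14, which lies at the face between the subunits, had 7.34 and 8.01 FPKM against 12.8 FPKM in the control, a difference of -0.67 ± 0.20. MRPL28, the counterpart of bacterial L28, had 7.98 and 7.68 FPKM against 11.3 FPKM, a difference of -0.48 ± 0.19. Each of these has an adjusted p of 0.797 in limma's test.

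Taking the libraries singly, bounds lay below those of the control for 6 of the 60 genes in the library labelled shBCAT1 1 (10%), beside 7.61% of all genes tested, and for 12 in the library labelled shBCAT1 2 (20%), beside 7.66%. They lay above for 0 of the 60 in the first, beside 1.65%, and for 1 in the second (1.67%), beside 7.33%. That gene was MRPS2, the counterpart of bacterial S2. Bounds below the control's were thus about as common as among all genes in shBCAT1 1, and more common in shBCAT1 2. These bounds hold no spread between libraries.

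The 8 genes with the largest smaller difference in the lower direction were MRPL53, MRPS24, MRPL47, MRPL13, MRPL14, MRPL33, MRPS21 and MRPS17. MRPL53, at the base of the stalk, had the largest fitted difference of all 60, with 2.28 and 1.21 FPKM against 4.70 FPKM in the control. That is -1.08 ± 0.31 (SE) on the log2(FPKM + 1) scale, from only 16 and 9 fragments against 32 in the control, and its bounds lay apart in the library labelled shBCAT1 2 but overlapped in the other. MRPL47, the counterpart of bacterial L29 near the exit tunnel, had 1.73 and 1.63 FPKM against 3.33 FPKM in the control. MRPL13, with a counterpart in bacterial L13, had 1.14 and 0.874 FPKM against 2.27 FPKM, and MRPL33, a short counterpart of bacterial L33, had 4.18 and 5.75 FPKM against 9.25 FPKM. MRPS21 had 4.41 and 4.32 FPKM against 6.98 FPKM, with the libraries labelled shBCAT1 closer to each other than to the control. All had overlapping bounds in at least 1 library apart from MRPS24, MRPL14 and MRPS17.

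Only 6 of the 60 genes had both libraries above the control, and their differences were small. MRPL46, of the central protuberance of the large subunit, had 1.78 and 1.61 FPKM against 1.25 FPKM in the control, a difference of 0.26 ± 0.18 (SE). MRPS2 had 3.82 and 5.43 FPKM against 3.25 FPKM, a difference of 0.39 ± 0.26, over 5 transcript entries. MRPL16, a counterpart of bacterial L16, had 1.19 and 1.74 FPKM against 1.09 FPKM. MRPS7 (1.86 and 1.96 against 1.62 FPKM in the control) and MRPL3 (1.82 and 1.84 against 1.62 FPKM), which bind ribosomal RNA, came next. MRPL10, which anchors the stalk made of MRPL12, had 1.05 and 1.30 FPKM against 0.931 FPKM in the control. Adjusted p by limma was 0.804 for MRPS2 and higher for the other 5, and all bounds but those of MRPS2 in the library labelled shBCAT1 2 overlapped the control's. MRPL12 and its anchor thus differed in sign, at -0.63 and 0.17, while neither passed the test.

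MRPS12, a protein of the decoding centre, had 5.12 and 5.02 FPKM against 8.0 FPKM in the control, a difference of -0.57 ± 0.19 (SE). Its value sums 3 transcript entries, and with transcripts kept apart the entry of highest mean differed by -0.15. MRPL58, which can release peptides from stalled ribosomes, had 1.39 and 1.14 FPKM against 1.62 FPKM, a difference of -0.21 ± 0.18 that was 0.0227 and 0.0112 once either trend with transcript length described below had been removed. In 11 genes the control lay between the libraries labelled shBCAT1: MRPL1, MRPL2, MRPL27, MRPL32, MRPL37, MRPL49, MRPL55, MRPS10, MRPS11, MRPS22 and MRPS26.

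**Figure D3:**
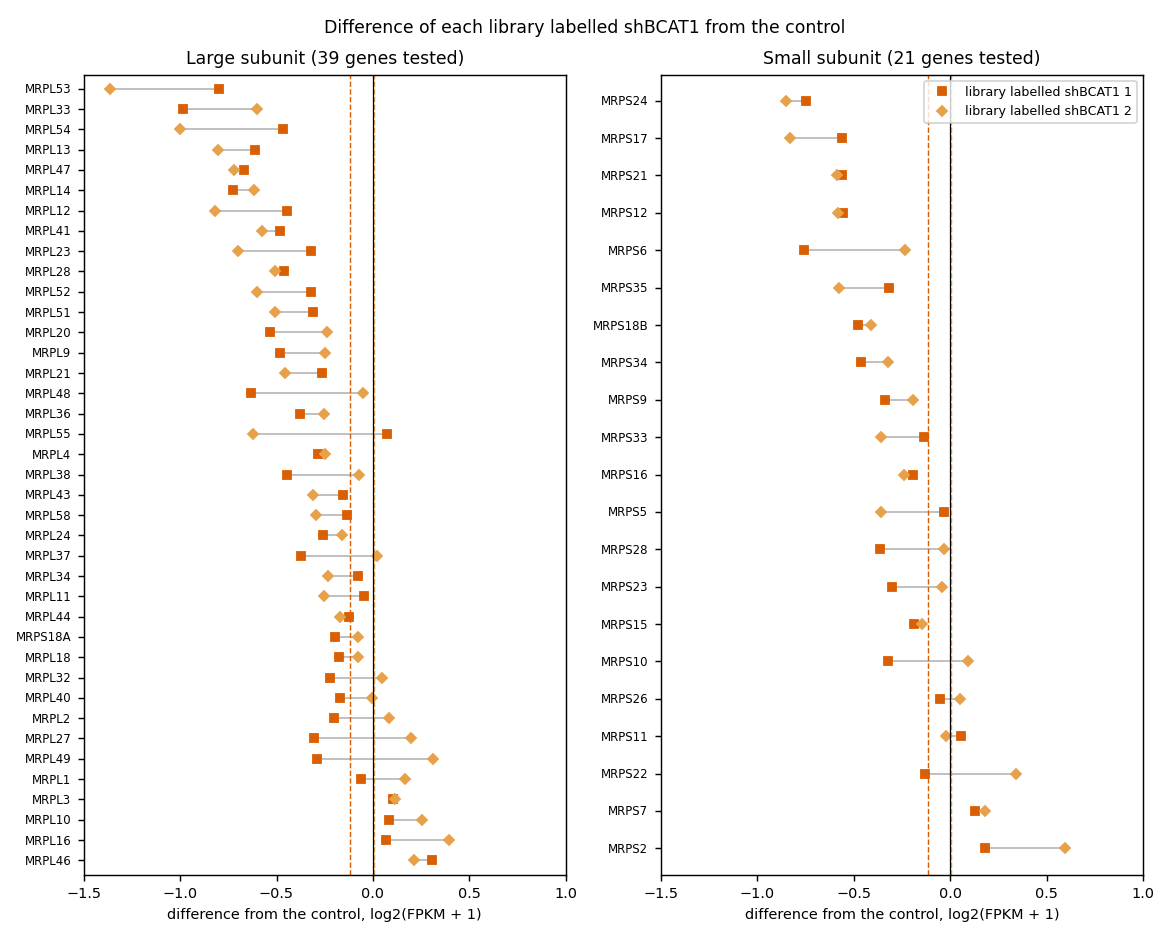
Log2(FPKM + 1) difference from the control (horizontal axis) of the 60 genes tested, large subunit left and small subunit right; squares are the library labelled shBCAT1 1, diamonds shBCAT1 2, joined by a line, and dashed lines the medians of all genes tested (-0.12 and 0.01). In 43 genes both symbols lie left of 0 and in 6 both lie right of it.

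The lower values were spread over the ribosome. Large subunit genes with a bacterial counterpart (24 tested of 30) had a median difference of -0.24, with both libraries below the control in 17 and above in 3. Large subunit genes without one (15 of 21) had a median of -0.26, with 11 below and 1 above. Among small subunit genes the median was -0.22 for the 15 tested of 17 with a counterpart, with 11 below and 2 above, and -0.21 for the 6 of 9 without one, with 4 below and 0 above. These medians differed from each other by less than those of the libraries labelled shBCAT1 did.

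Many of these genes have processed pseudogenes, and reads shared with such copies can be counted for either, which makes their values uncertain. RefSeq lists at least 1 numbered pseudogene for 41 of the 77, for example 9 for MRPS21 and 6 for MRPS17. Genes with a listed pseudogene (30 tested) had a median difference of -0.21 and genes without (30 tested) of -0.26. These groups were not matched for length or level, and what part shared reads have in the differences was not tested. MRPL12, MRPL28, MRPL33, MRPL47 and MRPS12 are among those without a listed pseudogene.

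Transcript length moved with the result. The effective length, here the length over which fragments can start as read from the bounds and FPKM of genes with 1 entry and from GENCODE for others, had a median of 841 bases in the 60 genes and 1768 bases in 3799 other genes tested. Across genes, which are not independent replicates, Spearman's rho between this length and the difference was 0.456 in the 60 genes and 0.476 in the other genes. Below 500 bases the 10 family members had a median difference of -0.61, beside -0.42 for 304 other genes. Between 500 and 700 bases the order was turned, with -0.20 for 8 members beside -0.34 for 209 other genes. Between 700 and 1000 bases the medians were equal at -0.23, for 19 members and 398 other genes. Between 1000 and 1500 bases they were -0.19 for 14 members beside -0.14 for 652 others, and at 1500 bases or more -0.12 for 9 members beside 0.03 for 2236 others.

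With the trend on effective length removed from each library (an alternative added once values were known), the median of the 60 genes was -0.11 beside -0.05 for all genes, and limma gave 3 of the 60 an unadjusted p below 0.05 in the lower direction (5%), beside 1.89% of all genes tested. Both libraries lay below the control in 29 of the 60 with either length trend removed. With GENCODE lengths it was -0.13 beside -0.05. The family's median minus that of all genes was -0.18 on the log2(FPKM + 1) scale as deposited, -0.08 with the GENCODE length trend removed and -0.05 with that on effective length. MRPL36, at -0.32 as deposited, was at 0.0232 and 0.0310 after the GENCODE and effective length removals. What part length has in the lower values of single genes was not tested further.

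**Figure D4:**
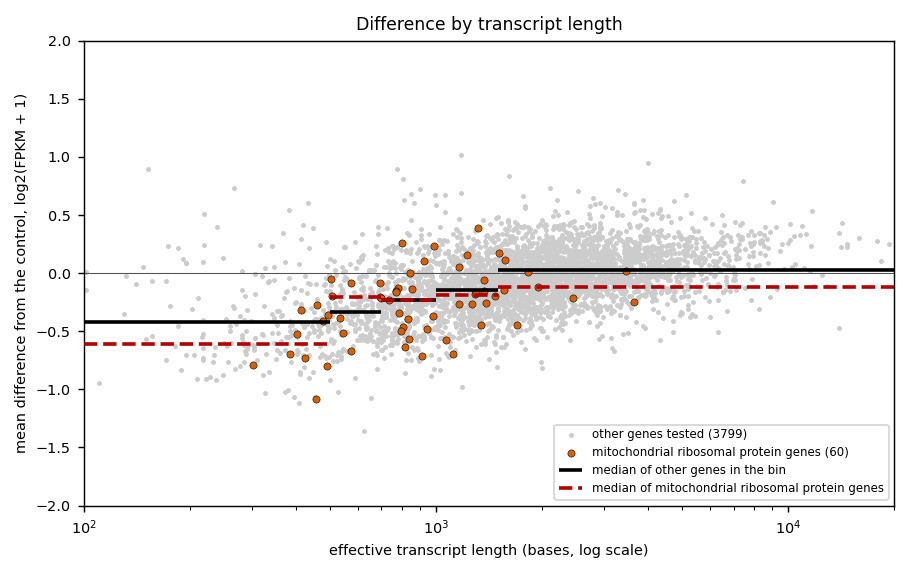
Mean log2(FPKM + 1) difference of both libraries labelled shBCAT1 from the control (vertical axis) against effective transcript length in bases (log axis); orange points are the 60 mitochondrial ribosomal protein genes, grey points other genes tested, dashed red and solid black lines their medians in 5 ranges of length. Both medians are lowest below 500 bases (-0.61 and -0.42) and they coincide at -0.23 between 700 and 1000 bases; 79 genes, none of this family, fall outside the axes.

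Level moved with the result as well. At a mean of 10 FPKM or more the 8 family members had a median difference of -0.47 beside -0.29 for 523 other genes, and between 5 and 10 FPKM the 17 members had -0.39 beside -0.15 for 494 others. Between 2 and 5 FPKM the medians were -0.23 for 17 members and -0.04 for 1244 others, and between 1 and 2 FPKM -0.04 for 18 members and 0.01 for 1568 others. In each of these 4 ranges of level the family median was thus the lower. These ranges do not match genes for length. The log2(FPKM + 1) scale also understates the change of low genes, and what part this has in the differences between ranges was not tested.

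The 26 members tested with the ETS/GABPA letters had a median difference of -0.25 and the 28 without of -0.20, beside -0.10 and -0.05 in all genes tested with and without them. With the YY1 letters the 18 members had -0.29 and the 36 without had -0.22. Members with and without these letters both lay below all genes tested.

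Several members start back to back with another gene. A gene on the opposite strand began within 1000 bases upstream of 22 of the 69 members with a promoter (31.9%), beside 16.5% of all promoters in the table. The share among genes tested between the libraries was not counted. In MRPL46 and MRPS11, whose starts lie 320 bases apart, the pair joins a large and a small subunit gene, and MRPS11 had 1.69 and 1.55 FPKM against 1.59 FPKM in the control. MRPS12 starts 181 bases from SARS2, the mitochondrial seryl-tRNA synthetase gene, which had 0.973 and 1.48 FPKM against 0.788 FPKM in the control, so this pair lay on opposite sides of the control. MRPL49 starts 49 bases from FAU, which encodes a fusion of a ubiquitin-like protein with ribosomal protein S30 of the cytosol, at 69.9 and 61.2 FPKM against 96.0 FPKM in the control, while MRPL49 had 1.40 and 2.64 FPKM against 1.93 FPKM. MRPL18 and its neighbour TCP1, a subunit of the chaperonin of the cytosol, 210 bases away, both had lower values in both libraries. TCP1 was at 2.64 and 2.63 FPKM against 3.58 FPKM in the control, and the difference of MRPL18 turned sign with either length trend removed. A shared start region thus went with a shared sign in some pairs and not in others.

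In 7 of the 31 genes with 2 or more transcript entries above 0, the transcript with the highest value was not the same in each library. In MRPL24 the transcript that led in the control, at 4.49 FPKM (bounds 3.04 to 5.93), was at 2.70 (1.53 to 3.87) and 2.26 (1.20 to 3.33) in the libraries labelled shBCAT1 1 and 2. The other transcript was at 2.52 and 3.40 FPKM in these libraries against 1.95 FPKM in the control, and the sum was at 5.22 and 5.67 against 6.44 FPKM. In MRPL55, with 8 entries in overlapping exons, the leading transcript was at 3.77 and 0.00116 FPKM against 3.23 FPKM in the control, and the gene at 6.69 and 3.75 against 6.31 FPKM. All bounds of these transcripts overlapped the control's except for the near-zero value of MRPL55, whose upper bound of 0.326 FPKM lay below the control's lower bound of 0.415. MRPL43 was the third such gene by level.

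Other genes of mitochondrial translation were taken from lists of known parts of the pathway. Of all genes tested, 43.7% lay below the control in both libraries and 25.6% above it. Of 5 ribosomal proteins under other symbols 4 were tested, with 3 below the control in both libraries and 0 above. CHCHD1, of the small subunit, had 2.92 and 2.85 FPKM against 4.15 FPKM in the control, and GADD45GIP1, of the large subunit, had 9.90 and 8.93 FPKM against 11.98 FPKM. Of 25 assembly factors 11 were tested, with 6 below and 3 above. Their median difference was -0.15, beside -0.06 for all genes tested. YBEY, an RNA-processing endonuclease, had 1.05 and 0.767 FPKM against 1.71 FPKM, and TRUB2, a pseudouridine synthase that acts on mitochondrial RNA, had 2.24 and 2.42 FPKM against 3.28 FPKM. MALSU1, which binds MRPL14 during assembly of the large subunit, had 2.69 and 2.65 FPKM against 3.61 FPKM in the control.

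All 4 tested of 15 translation and RNA-stability factors lay below the control in both libraries, beside 43.7% of all genes tested. Their median difference was -0.36, beside -0.06 for all genes tested. The smallest was that of TUFM, at -0.16 and -0.05 in the libraries labelled shBCAT1 1 and 2. SLIRP, which protects mitochondrial mRNAs, had 40.4 and 42.3 FPKM against 55.0 FPKM in the control, a lower value that turned with quantile normalization or the effective length trend removed, and the initiation factor gene MTIF3 had 1.54 and 0.682 FPKM against 1.84 FPKM. Of 4 genes of mitochondrial RNA synthesis the single one tested, the polymerase gene POLRMT, had 2.46 and 2.95 FPKM against 2.20 FPKM. Of 8 regulators of nuclear genes for mitochondria 3 were tested. PPRC1, a coactivator related to PGC-1, had 1.34 and 1.46 FPKM against 0.959 FPKM in the control, and YY1 had 1.29 and 1.53 FPKM against 1.62 FPKM. NRF1 lay between 0.312 and 0.397 FPKM and GABPA between 0.0491 and 0.0853 FPKM over the libraries. In these lists 0 genes passed at an adjusted p of 0.05 and 0 at an unadjusted p of 0.05 by limma.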

How the data were processed

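Trim Galore, TopHat and Cufflinks were used with the build hg38, per the submitters' processing notes; for versions, settings, annotation and strand the answer is: not given in the sources used here. What the authors deposited is FPKM per RefSeq transcript with confidence bounds, in a separate table per library. Symbols came from a RefSeq gene table (49281 accessions) and GENCODE release 29 (645), with 411 left unnamed, and 341 genes with a status other than OK were left out, none of them of the family. Bounds of summed entries are root sums of squares with 2 SDs from value to bound, and the square of value over SD is read as fragments: it was whole within 0.05 for 40 to 42 of 44 family members with 1 entry. A median regression of fragments per FPKM on length, for transcripts of 2000 to 8000 bases, gave fragment totals and effective lengths. For genes with 1 entry the bounds thus cover counting error only; those of genes with several entries can be wider (MRPS34 in the control).

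The comparison used limma 3.58.1 (R 4.3.3) with an intensity trend on log2(FPKM + 1), a mean of at least 1 FPKM and Benjamini-Hochberg adjustment over all genes. Tests are two-sided. The fit was run on simulated data whose planted changes were larger than any fitted in the family, so it gives no measure for smaller ones. Length trends were fitted by loess (span 0.5) and subtracted. Tables and plots were built in pandas 2.3.3, numpy 2.4.6, statsmodels 0.14.6 and matplotlib 3.10.9 under Python 3.11.15. Named genes are the 8 most abundant, up to 8 per direction, ranked by the lesser of both libraries' differences where the signs matched (6 were higher), those with bounds apart in both, all below 1 FPKM, 8 of known position, and up to 2 per other list; MALSU1 and the genes starting beside family members were chosen after their values had been seen. Members and lists were chosen with earlier results of these data known.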

Additional observations from a re-analysis of the deposited data

How the results depend on the processing

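No paired analysis was possible. There is only 1 control library, and its title holds no number that would match it to a library labelled shBCAT1. The median log2(FPKM + 1) difference of the family was negative in every alternative run: -0.30 with a pseudocount of 0.1, -0.13 with one of 5, -0.41 at a mean of at least 5 FPKM, -0.18 with median-of-ratios scaling, -0.13 with quantile normalization, -0.13 with the GENCODE length trend removed and -0.11 with that on effective length. Leaving out 1 library labelled shBCAT1 gave -0.30 to -0.24. Over all genes tested the median was -0.06 as reported, -0.08 and -0.03 with pseudocounts of 0.1 and 5, and -0.22 at 5 FPKM. With median-of-ratios scaling it was -0.006, and with quantile normalization 0.02. The family's median minus that of all genes was -0.22, -0.10, -0.19, -0.17 and -0.15 in these alternatives, in that order, against -0.18 as reported. The count lower at an unadjusted p under 0.05 by limma was 9 of 60 as reported (15%, beside 193 genes or 4.96% of all). It was 4 with quantile normalization (6.67%, beside 80 genes or 2.06%). With the GENCODE length trend removed it was 4 (6.67%, beside 84 genes or 2.21%). With the effective length trend removed it was 3 (5%, beside 73 genes or 1.89%). With transcripts kept apart, members were read by their entry of highest mean. There the count was 3 of 59 (5.08%), beside 178 of 4077 transcript entries (4.37%). Genes with both libraries below the control, 43 of 60, were 21 of 25 at 5 FPKM (84.0%, beside 64.4% of all genes) and 29 of 60 with either length trend removed (48.3%, beside 43.1% and 43.3%). Those with both above, 6 as reported (10%, beside 25.6% of all genes), were 0 at 5 FPKM (beside 12.2%). With the GENCODE and effective length trends removed they were 10 (16.7%, beside 23.6% and 23%). Leaving out 1 library left 8 to 15 of the 60 above the control (15 without shBCAT1 1). In shBCAT1 1 alone 52 of the 60 lay below, beside 2672 of 3889 genes tested. In shBCAT1 2 alone 45 lay below, beside 1906 of 3889. Over all genes limma called 14 lower, all read at 0 in both libraries labelled shBCAT1. This was 8 at 5 FPKM and 1 without loci under 300 bases (added after seeing the data). It was 0 with no filter (785 lower, 258 higher by unadjusted p) or with transcripts kept apart (178 and 88 of 4077 transcript entries). Calls higher, 0 as reported, were 1 with a pseudocount of 0.1 and 2 with either length trend removed. MRPL36 (0.0232 and 0.0310) and MRPL58 (0.0227 and 0.0112) turned sign with the GENCODE and effective length trends removed, as did MRPL18 (0.0788 and 0.0709), MRPL24 (0.0305 and 0.0189), MRPL55 (0.0515 and 0.0517) and MRPS11 (-0.0819 and -0.0921). SLIRP was at 0.0439 with the effective length trend removed and 0.0465 with quantile normalization, MRPL43 at 0.388 with transcripts kept apart, and MRPL49 at -0.00405 with the effective length trend removed and -0.00339 with a pseudocount of 0.1. Leaving out 1 library gave -0.288 to 0.311 for MRPL49, -0.623 to 0.0724 for MRPL55 and -0.0204 to 0.0557 for MRPS11. Of 43 named genes run under the alternatives, the other 34 kept their sign in the alternatives run for them. Named genes outside the family were not read out with transcripts kept apart. A kept sign did not mean a kept size. With the effective length trend removed MRPL51 went from -0.408 to -0.089 and MRPL21 from -0.362 to -0.050. GADD45GIP1 went from -0.320 to -0.041 and MALSU1 from -0.330 to -0.048. Others moved less, such as MRPL13 (-0.709 to -0.552), and MRPS2 moved further from the control (0.389 to 0.453). Beyond the alternatives' own construction the cause was not tested. Family members with 1 entry had a median of 33 and 41.5 fragments in the libraries labelled shBCAT1 and 38.5 in the control, which limits the precision of single genes.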
